A study of Mus musculus with 6 samples.

Results

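Autophagy machinery genes were followed in RNA-seq values of mouse testis after chronic ethanol intake. The genes were chosen by symbol among the protein-coding rows of the deposited gene table, by a rule that names symbols only, although the set was picked with earlier results of these data known. Included were the genes named Atg followed by a digit, Ulk1 to Ulk3, the Map1lc3 and Gabarap genes, Wipi1 and Wipi2, and Becn1, Sqstm1, Nbr1, Optn, Rb1cc1, Pik3c3, Pik3r4, Uvrag, Ambra1, Tfeb, Lamp1, Lamp2, Wdr45, Wdr45b, Calcoco2 and Tax1bp1. This gave 44 genes of 45777 in the table, and all 44 had enough reads to be tested. The testes came from mice of genotype WT, labelled Ethanol-fed or Control-fed, with 3 libraries for each diet at 16 weeks. All mice were kept on a liquid diet and first had 5 days on its control form. Strain and age are not stated in the labels. It is also not stated whether the libraries of a diet are different animals, so the tests below see only the variation among these libraries, which could be technical.

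Autophagy encloses cytoplasm in a membrane and delivers it to the lysosome. A kinase complex around ULK1 starts the process, a lipid kinase complex around Beclin 1 marks the membrane, and ATG9 and ATG2 proteins supply lipid to it. Ubiquitin-like conjugation then attaches proteins of the ATG8 family to the growing membrane, where cargo receptors bind them before fusion with the lysosome. In the testis, autophagy is known for roles in the acrosome of the developing sperm, in steroid-producing Leydig cells and in Sertoli cells, which nurse the germ cells.

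Libraries held 38935654 to 47420249 counts. Levels are compared between genes in TPM, the authors' value scaled to transcript length and library size. Defining markers of testis were present: the summed TPM of 8 genes of elongating spermatids was 43561 to 50160.7 over the libraries, and that of 6 epididymis genes was 7.44 to 8.64. Other marker lists lay on either side. The summed TPM of 12 Sertoli cell markers was 1167.3 to 1372.9 in controls and 1515.3 to 1705.5 with ethanol, and that of 6 erythroid markers 56.6 to 100.3 and 132.4 to 158.6, with the diets apart in both. The sums were also apart for spermatogonia (82.4 to 90.8 and 94.6 to 100.1) and peritubular myoid cells (121.2 to 128.5 and 136.3 to 139.6). However, 0 of 8 spermatogonia markers and 0 of 6 peritubular myoid markers had an unadjusted p under 0.05, with 7 and 6 above 0. In TPM the median log2 fold change of all tested genes is itself 0.04. For 6 adipocyte markers the sums overlapped (17.0 to 28.0 and 25.7 to 84.8, highest in ethanol library 1). Still, 6 of 6 lay above 0, with 4 at an unadjusted p under 0.05 and a median log2 fold change of 1.71. The libraries of the diets lay apart in CPM for 0 of these 6. All 5 tested erythroid markers had an unadjusted p under 0.05 on the higher side, with a median log2 fold change of 0.73. On the lower side, 8 of 8 spermatocyte markers lay below 0, with 3 at an unadjusted p under 0.05, and 7 of 8 round spermatid markers, with 2. The summed TPM of both lists overlapped between the diets. Leydig cell markers went both ways, with 5 of 8 below 0 and 3 above. At an unadjusted p under 0.05 there were 3 lower and 1 higher, and their sums overlapped (1018.8 to 1181.6 and 1031.7 to 1123.6). Among all tested genes 13.3% had such a p. In whole tissue, fewer cells of a type and less RNA per cell cannot be told apart.

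As a group the autophagy machinery genes stood at nearly the same level under both diets. The median log2 fold change of the 44 genes, ethanol against control, was 0.003, beside 0.007 for all 25073 tested genes, with 23 genes above 0 and 21 below. None of the 44 passed an adjusted p of 0.05 in edgeR's quasi-likelihood test, where 0.0% of all tested genes passed, and the lowest adjusted p among the 44 was 0.261.

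Of the 44 genes, 4 had an unadjusted p under 0.05, or 9.09%, beside 13.3% of all tested genes. These were Map1lc3b, Gabarapl1 and Atg16l1 on the higher side, where 7.45% of all tested genes lay, and Calcoco2 on the lower side, where 5.89% lay. The libraries of one diet lay apart from those of the other for 5 genes, or 11.4%, beside 18.8% of all tested genes: the same 4 and Atg4a. On the higher side there were 4 such genes (9.76% of all tested genes) and on the lower side 1 (9.01%). DESeq2 gave an adjusted p to 42 of the 44 and called 0 of them, while it called 1.81% of all genes it adjusted. At an unadjusted p under 0.05 DESeq2 had the same 3 genes on the higher side and 0 on the lower side, beside 11.2% of all genes. The calls with limma-voom were also 0 of the 44.

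None of the 4 genes at an unadjusted p under 0.05 stayed there when each library was left out in turn. On the higher side there was 1 gene without ethanol library 2, Map1lc3b. Without ethanol library 3 none of the 3 higher genes remained and Tfeb was added, and without control library 2 none remained and Atg16l2, Atg4c and Wipi1 were added. On the lower side there were 0 without control library 2 or ethanol library 2, and 2 without control library 3, ethanol library 1 or ethanol library 3. With offsets for GC content and transcript length there were 4 on the higher side, with Tfeb added, and 5 on the lower side, with Atg2a, Atg2b, Atg4d and Atg9a added. In that fit 17.2% of all genes had an unadjusted p under 0.05.

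The standard error of the log2 fold change had a median of 0.08 over the 44 genes. For 25 of them the 95% interval lay within a 1.25-fold difference in either direction, and for 40 within a 1.5-fold difference. The other 4 were Calcoco2, Atg9b, Atg16l2 and Tfeb, each with a mean under 4 TPM. Shifts over the whole group were small in each library. On the log2 scale, the median deviation of the 44 genes from their mean over all libraries was -0.011, -0.011 and -0.018 in control libraries 1 to 3. In ethanol libraries 1 to 3 it was 0.025, 0.009 and 0.002, so the medians lay apart by diet. Over all tested genes the medians were -0.001 to 0.001 in controls and 0.004 to 0.006 with ethanol.

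**Figure D1:**
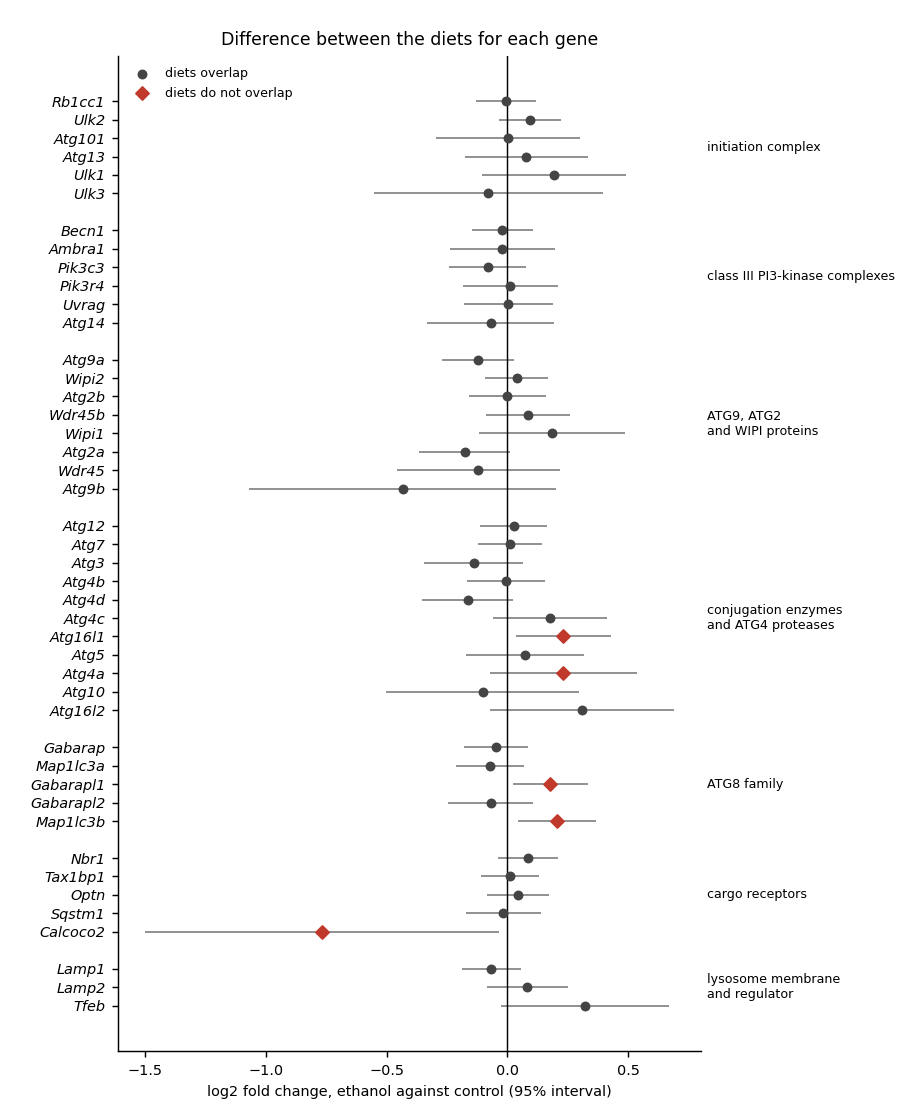
Log2 fold change, ethanol against control, with its 95% interval from the edgeR fit (x axis) for each of the 44 genes (y axis), grouped by role. Red diamonds mark the 5 genes whose diets did not overlap in CPM, and the intervals of 4 of them, all but Atg4a, do not include 0.

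Levels differed far more between genes than between diets. Together the 44 genes made up 3033.6 to 3402.4 TPM per library. The mean over the 6 libraries reached at least 1 TPM for 42 genes and at least 100 TPM for 10. The highest were Nbr1 at 454.9 TPM, Lamp1 at 390.4, Gabarap at 358, Map1lc3a at 331.8, Tax1bp1 at 284.1 and Gabarapl1 at 201.6 TPM. By mean TPM, Nbr1 ranked 272 and Lamp1 345 among 21949 protein-coding genes. The lowest were Calcoco2 at 0.477 TPM and Atg9b at 0.421 TPM. For 7 genes the transcript length implied by the deposited counts and FPKM differed over 1.1-fold between libraries, by 1.74-fold for Atg16l2, so the TPM and counts of these genes need not move together.

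**Figure D2:**
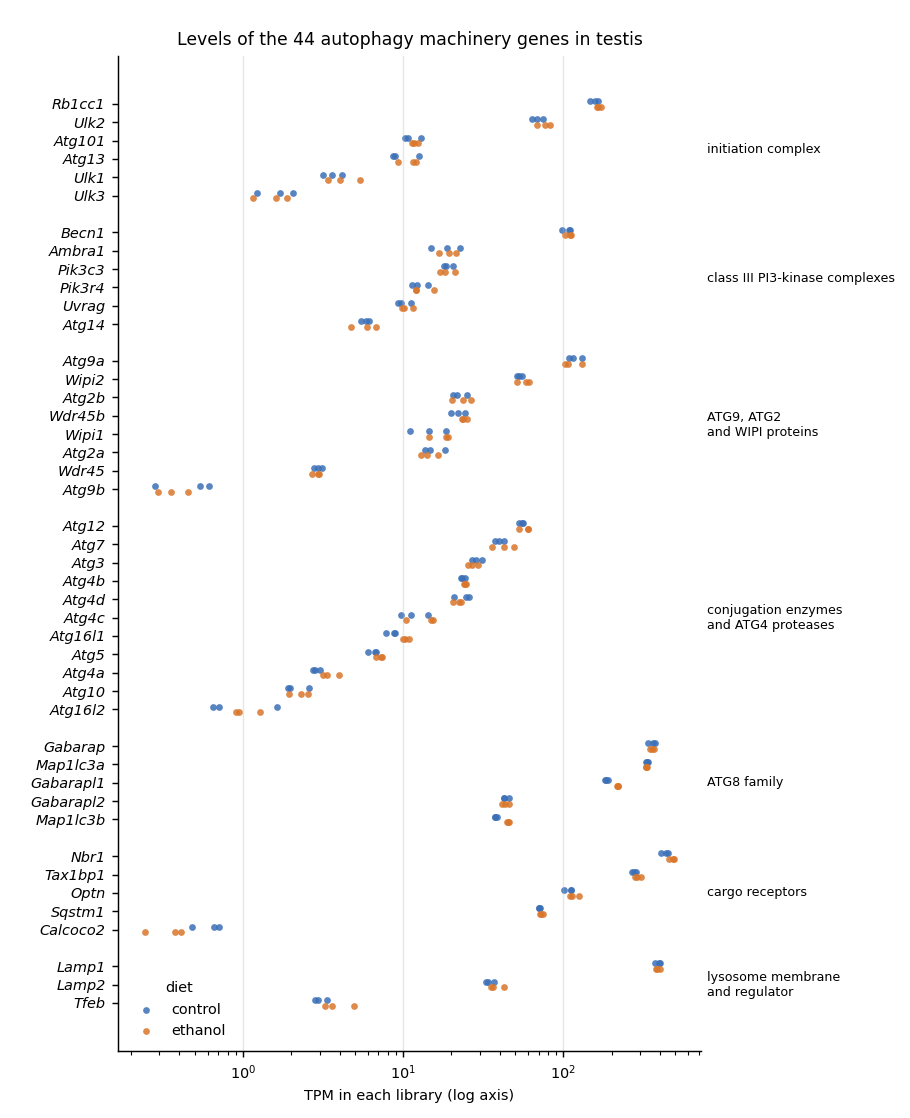
TPM of each of the 44 genes (y axis, grouped by role) in each of the 6 libraries (x axis, log scale), with control libraries in blue and ethanol libraries in orange. Nbr1 is the highest and Atg9b the lowest, and the diets are apart in TPM for 6 genes, beside 16.1% of all tested genes: Map1lc3b, Gabarapl1, Atg16l1, Atg4a and Nbr1 higher with ethanol, and Calcoco2 lower.

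Of 6 genes grouped under the initiation complex, with Ulk3 included only as a relative of its kinases, 4 lay above 0. None had an unadjusted p under 0.05. Rb1cc1, the scaffold also called FIP200, was the highest per length. In CPM, reads relative to a TMM-scaled library size, Rb1cc1 stood at 610.7, 592.3 and 589.7 CPM in controls and 568.7, 628.9 and 586.4 CPM with ethanol, in the order of libraries 1 to 3 of each diet here and below. The ethanol libraries lay on both sides of the controls, and the 95% interval of the log2 fold change ran from -0.13 to 0.12. Of the kinases, Ulk2 took 92.0 to 93.7% of the summed TPM of Ulk1, Ulk2 and Ulk3 in the 6 libraries. Its TPM was 15.4 to 21.6 times that of Ulk1, the kinase for which the complex is named. Ulk2 stood at 213.6, 217.4 and 207.2 CPM in controls and 234.9, 229 and 217 CPM with ethanol, with ethanol library 3 within the control range (log2 fold change 0.09, SE 0.06). Ulk1 stood at 8.96, 10.9 and 9.55 CPM in controls and 13.4, 10.8 and 9.45 CPM with ethanol (log2 fold change 0.19, SE 0.14). Only ethanol library 1 was above the controls. Ulk3 was the lowest of the 6 genes, at 2.59, 2.98 and 1.91 CPM in controls and 2.67, 1.76 and 2.66 CPM with ethanol, and the diets overlapped. The adaptors Atg13 and Atg101 had log2 fold changes of 0.08 (SE 0.12) and 0.003 (SE 0.14).

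Genes of the class III PI3-kinase complexes had log2 fold changes from -0.08 to 0.01, and 0 of 6 had an unadjusted p under 0.05. Becn1, which encodes the core subunit Beclin 1, stood at 114.6, 108.8 and 108.4 CPM in controls and 107.2, 110.3 and 109.6 CPM with ethanol. The diets overlapped, with a 95% interval from -0.15 to 0.11. Becn1 shares 3104 exonic bases with Cntd1 on the opposite strand, a gene at 116.3 CPM on average with a log2 fold change of -0.15 (SE 0.06). Whether the counting used strand is not given, so reads of this pair may not be told apart. For the lipid kinase itself, Pik3c3, the log2 fold change was -0.08 (SE 0.07), and for its regulatory subunit Pik3r4 it was 0.01 (SE 0.09). Atg14 directs the complex to new autophagosomes, and Uvrag to endosomes and later steps. Uvrag had 1.53 to 2.08 times the TPM of Atg14 in the 6 libraries. Atg14, the lowest of the group per length, stood at 10.2, 10.1 and 11.7 CPM in controls and 11.3, 10.4 and 8.82 CPM with ethanol, with the lowest value in ethanol library 3. Ambra1, a scaffold that binds Beclin 1, had a log2 fold change of -0.02 (SE 0.10).

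Among the 8 genes of membrane supply, 0 had an unadjusted p under 0.05 and 5 lay below 0. ATG9 is the lipid scramblase of the vesicles that seed the membrane, and Atg9a carried nearly all of its transcript. Atg9a stood at 241.4, 256.7 and 236.8 CPM in controls and 245.9, 215.1 and 214.7 CPM with ethanol (log2 fold change -0.12, SE 0.07), with ethanol library 1 within the control range. Atg9b had 53, 53 and 27 reads in controls and 34, 31 and 26 reads with ethanol, and its share of the summed TPM with Atg9a was 0.261 to 0.462%. The lipid transfer genes were closer to each other, with Atg2b at 57.9 to 62.7% of their summed TPM. Atg2a stood at 50.5, 59.0 and 49.1 CPM in controls and 50.7, 44.5 and 45.0 CPM with ethanol (log2 fold change -0.18, SE 0.09, edgeR unadjusted p = 0.0631, adjusted p = 0.409), and ethanol library 1 overlapped the controls. Atg2b had a 95% interval from -0.16 to 0.16.

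WIPI proteins read the lipid mark and recruit the conjugation machinery. Wipi2 led them with 54.6 to 60.4% of their summed TPM, and Wdr45 was lowest with 2.56 to 3.42%. Log2 fold changes were 0.18 (SE 0.14) for Wipi1, 0.04 (SE 0.06) for Wipi2, -0.12 (SE 0.15) for Wdr45 and 0.09 (SE 0.08) for Wdr45b.

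Conjugation enzymes attach ATG12 to ATG5 and ATG8 proteins to lipid, and ATG4 proteases trim ATG8 proteins before this step and release them afterwards. Of these 11 genes, 1 had an unadjusted p under 0.05, or 9.09%, beside 13.3% of all tested genes. Atg12 was the highest of them per length, with 7.26 to 8.89 times the TPM of its partner Atg5. Atg12 stood at 71.9, 66.1 and 70.1 CPM in controls and 69.8, 73.6 and 68.5 CPM with ethanol, and the diets overlapped. The E1-like enzyme Atg7 had a 95% interval from -0.12 to 0.14. Log2 fold changes were 0.07 (SE 0.11) for Atg5 and, for the E2-like enzymes, -0.14 (SE 0.09) for Atg3 and -0.10 (SE 0.18) for Atg10.

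Atg16l1, which places the conjugation complex on the membrane, was the one with an unadjusted p under 0.05. It stood at 14.6, 13.5 and 13.5 CPM in controls and 15.4, 17.0 and 16.5 CPM with ethanol. Every ethanol library lay above every control (log2 fold change 0.23, SE 0.09, edgeR unadjusted p = 0.0247, adjusted p = 0.298). Its relative Atg16l2, the lowest of these genes per length, stood at 2.29, 2.80 and 2.05 CPM in controls and 3.32, 2.63 and 2.90 CPM with ethanol (log2 fold change 0.31, SE 0.17), with control library 2 above ethanol library 2.

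Of the ATG4 proteases, Atg4b held 36.1 to 39.8% of their summed TPM, Atg4d 32.6 to 40.9%, Atg4c 15.9 to 23.9% and Atg4a 4.49 to 5.98%. The ranges of Atg4b and Atg4d overlap, so their order is not given. Atg4a stood at 3.57, 3.40 and 3.55 CPM in controls and 3.88, 4.64 and 3.83 CPM with ethanol. The diets lay apart, with ethanol library 2 highest (log2 fold change 0.23, SE 0.14, edgeR unadjusted p = 0.123, adjusted p = 0.507). Log2 fold changes were -0.006 (SE 0.07) for Atg4b, 0.18 (SE 0.11) for Atg4c and -0.16 (SE 0.09) for Atg4d. Atg4d shares 1405 exonic bases with Kri1 on the opposite strand, a gene with a log2 fold change of -0.15 (SE 0.08).

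ATG8 proteins decorate the autophagosome and fall into the LC3 subfamily, Map1lc3a and Map1lc3b, and the GABARAP subfamily. Of these 5 genes, 2 had an unadjusted p under 0.05, both on the higher side, where 7.45% of all tested genes lay. A share of so few genes says little. Map1lc3b, which encodes LC3B, the usual protein marker of autophagosomes, lies on chromosome 8 at 121590438 to 121598760 (mm10). It stood at 50.8, 45.7 and 51.2 CPM in controls and 54.3, 55.6 and 60.3 CPM with ethanol. All ethanol libraries lay above all controls (log2 fold change 0.20, SE 0.07, edgeR unadjusted p = 0.0165, adjusted p = 0.261).

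Gabarapl1 lies on chromosome 6 at 129533192 to 129542331 (mm10). It stood at 175, 161 and 188.2 CPM in controls and 188.4, 195.1 and 209.6 CPM with ethanol. The diets barely separated, with control library 3 just under ethanol library 1 (log2 fold change 0.18, SE 0.07, edgeR unadjusted p = 0.028, adjusted p = 0.311). The gap was wider in TPM, at 183.9, 181.6 and 190.0 TPM in controls and 219.5, 216 and 218.7 TPM with ethanol. The transcript length implied for Gabarapl1 by the deposited counts and FPKM hardly differed between libraries. In TPM the median log2 fold change of all tested genes is itself 0.04. Gabarapl1 shares 570 exonic bases with 1700101I11Rik on the opposite strand, a gene at 17.2 CPM with a log2 fold change of 0.07 (SE 0.09).

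Upstream sequences are shown for Map1lc3b and Gabarapl1 because they were the ATG8 genes with separate diets, and for Atg3 because it alone among the matched genes holds the extended E-box named next. TFEB, a transcription factor of lysosome and autophagy genes, is known to bind E-boxes. The 250 bases before the annotated start came from RefSeq promoters on GRCm38.p6, and 36 of the 44 genes matched, with 42 promoters. The E-box CACGTG was in 4 of these, or 9.52% (Atg3, Atg5, Atg7 and Lamp1), beside 6.02% of all 32851 promoters. The extended form TCACGTGA, which contains the E-box, was in 1, or 2.38%, beside 0.785%. The GC box GGGCGG was in 24, or 57.1%, beside 32.7%. Both strands were searched. The windows are chr8:121590188-121590437 for Map1lc3b, chr6:129532942-129533191 for Gabarapl1 and chr16:45158579-45158828 for Atg3, all on the plus strand, and capitals mark GC boxes and E-boxes, 5′ to 3′.
Map1lc3b: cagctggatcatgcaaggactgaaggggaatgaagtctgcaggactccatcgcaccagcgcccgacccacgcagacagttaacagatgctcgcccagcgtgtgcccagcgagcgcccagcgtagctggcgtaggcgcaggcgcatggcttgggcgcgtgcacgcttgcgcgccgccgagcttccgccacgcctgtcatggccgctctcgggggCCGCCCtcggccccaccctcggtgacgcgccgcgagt
Gabarapl1: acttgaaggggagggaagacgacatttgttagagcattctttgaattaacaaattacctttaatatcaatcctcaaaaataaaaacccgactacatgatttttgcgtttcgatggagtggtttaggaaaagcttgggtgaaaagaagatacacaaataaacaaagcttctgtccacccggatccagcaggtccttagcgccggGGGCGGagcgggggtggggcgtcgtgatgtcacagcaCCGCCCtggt
Atg3: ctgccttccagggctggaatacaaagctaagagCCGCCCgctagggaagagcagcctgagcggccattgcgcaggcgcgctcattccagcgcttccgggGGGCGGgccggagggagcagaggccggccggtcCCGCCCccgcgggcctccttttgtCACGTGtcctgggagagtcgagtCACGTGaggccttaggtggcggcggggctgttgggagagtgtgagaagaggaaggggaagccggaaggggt
The Map1lc3b window holds 1 GC box and 0 E-boxes, and that of Gabarapl1 2 and 0. In Atg3, 2 E-boxes begin 94 and 71 bases before the start. Atg3 stood at 28.9, 28.4 and 34.7 CPM in controls and 28.6, 25.9 and 29.1 CPM with ethanol, and the diets overlapped. A match of letters is a description and not a binding site.

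The other ATG8 genes overlapped between the diets. Gabarap stood at 218, 208.1 and 212.2 CPM in controls and 193.2, 211.8 and 212.3 CPM with ethanol (log2 fold change -0.05, SE 0.06), with ethanol library 1 the lowest. Map1lc3a stood at 184.1, 174.9 and 196.6 CPM in controls and 169.4, 175 and 184.5 CPM with ethanol (log2 fold change -0.07, SE 0.06), also with ethanol library 1 the lowest. Gabarapl2 stood at 22.3, 22.5 and 23.5 CPM in controls and 20.4, 23.0 and 21.8 CPM with ethanol (log2 fold change -0.07, SE 0.08). The sign of Gabarap turned on the TPM scale (0.007) and that of Map1lc3a with GC and length offsets (0.04).

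Per length, Gabarap and Map1lc3a made up most of the family. Gabarap took 35.6 to 38.2% of the summed TPM of the 5 genes, Map1lc3a 32.7 to 35.6%, Gabarapl1 18.7 to 22.3%, Gabarapl2 4.19 to 4.74% and Map1lc3b 3.83 to 4.63%. Gabarap had 7.71 to 9.97 times the TPM of Map1lc3b. The share of Map1lc3b was 3.83 to 4.02% in controls and 4.41 to 4.63% with ethanol, and that of Gabarapl1 18.7 to 20.1% and 21.5 to 22.3%. These shares are descriptions with no test.

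**Figure D3:**
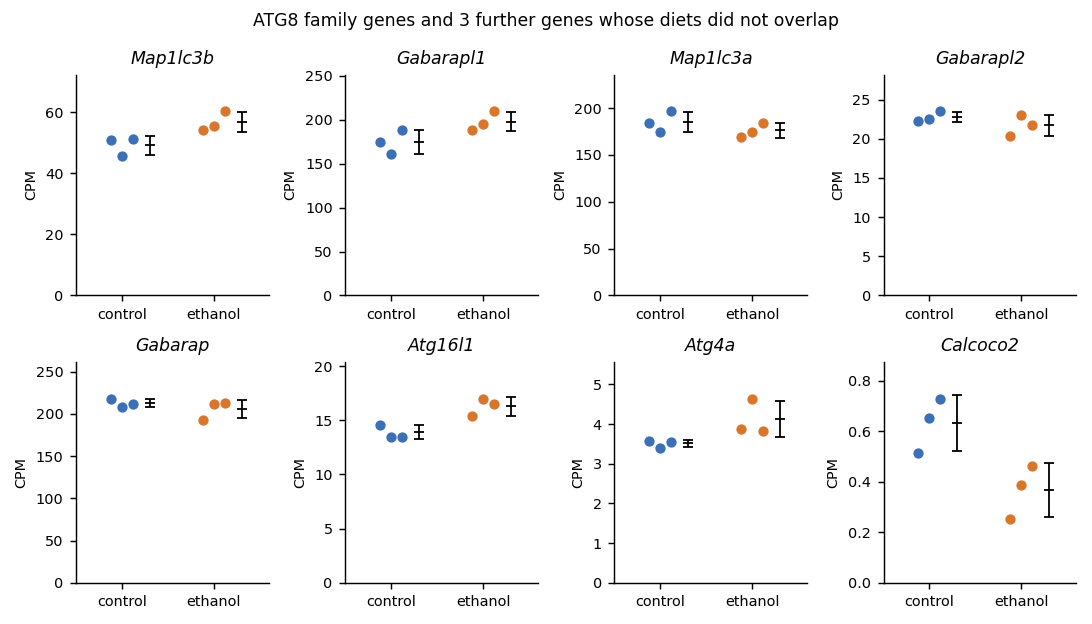
CPM after TMM scaling (y axis, from 0) in each control (blue) and ethanol (orange) library, in the order 1 to 3, for the 5 ATG8 family genes and for Atg16l1, Atg4a and Calcoco2, with the mean ± SD of 3 libraries beside them. The diets are apart for Map1lc3b, Gabarapl1, Atg16l1, Atg4a and Calcoco2 and overlap for the other 3 genes.

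Cargo receptors link cargo, often ubiquitinated, to ATG8 proteins. Nbr1 took 47.7 to 50.4% of their summed TPM, Tax1bp1 29.8 to 32.1%, Optn 11.8 to 12.6% and Sqstm1, which encodes p62, 7.31 to 8.25%. Nbr1 had 5.78 to 6.77 times the TPM of Sqstm1. Nbr1 stood at 1171.2, 1052.6 and 1099.8 CPM in controls and 1150.8, 1183.8 and 1195.3 CPM with ethanol (log2 fold change 0.09, SE 0.06), with control library 1 among the ethanol values. Its TPM was apart between the diets, at 452.2, 436.4 and 408.2 TPM in controls and 492.8, 481.7 and 458.3 TPM with ethanol, in a scale on which the median log2 fold change of all tested genes is 0.04.

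Sqstm1, whose protein is itself degraded by autophagy, stood at 75.4, 72.0 and 79.4 CPM in controls and 70.5, 72.7 and 80.9 CPM with ethanol. The diets overlapped, with a 95% interval from -0.17 to 0.14. Tax1bp1 stood at 511.9, 502.2 and 543.2 CPM in controls and 521.4, 516.3 and 530.5 CPM with ethanol, with the ethanol libraries inside the control range and a 95% interval from -0.11 to 0.13. The sign of both depended on the scaling or on single libraries. Optn stood at 160.4, 148.5 and 150.9 CPM in controls and 162.3, 154.1 and 157.4 CPM with ethanol (log2 fold change 0.04, SE 0.06), with control library 1 among the ethanol values.

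Calcoco2, the gene of the receptor NDP52, was barely present. It had 24, 29 and 31 reads in controls and 10, 17 and 19 reads with ethanol, or 0.513, 0.654 and 0.729 CPM in controls and 0.252, 0.389 and 0.463 CPM with ethanol. All ethanol libraries lay below all controls (log2 fold change -0.77, SE 0.34, edgeR unadjusted p = 0.0414, adjusted p = 0.351).

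**Figure D4:**
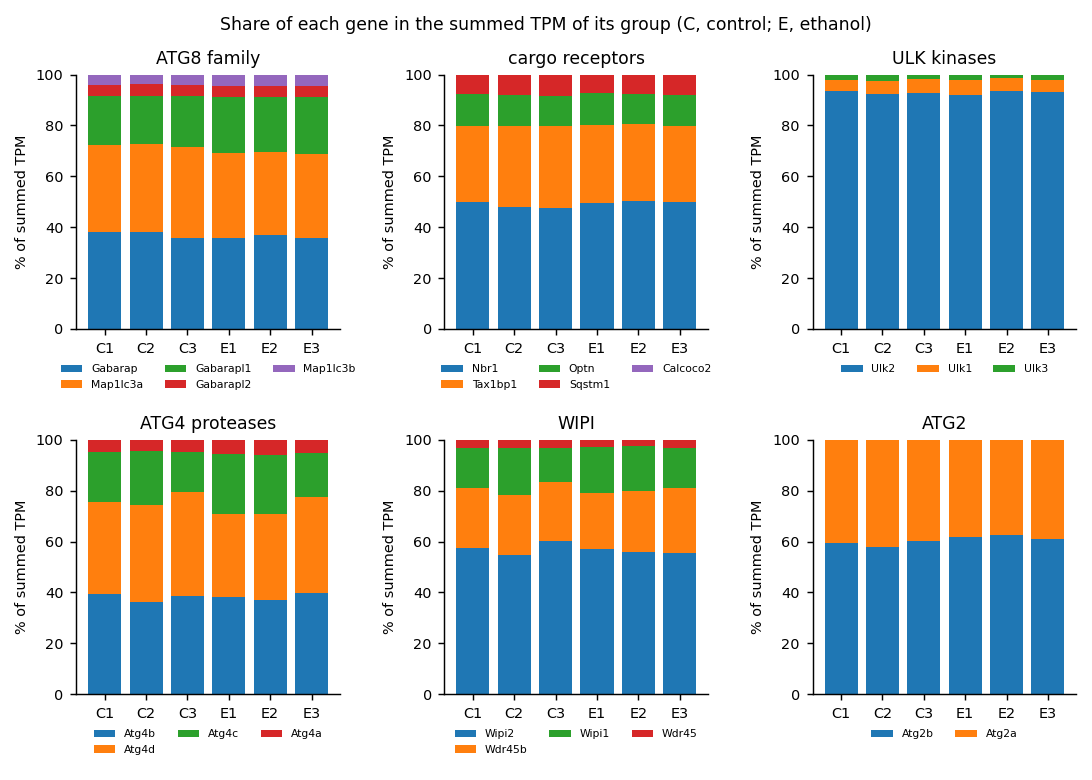
Share of each gene in the summed TPM of its group (y axis, percent) in each library (x axis, C for control and E for ethanol), as stacked bars for 6 groups. Ulk2 takes 92.0 to 93.7% of the ULK kinases and Nbr1 47.7 to 50.4% of the cargo receptors.

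At the lysosome, Lamp1 and Lamp2 encode the main glycoproteins of its membrane. Lamp1 stood at 477.2, 447.7 and 466.6 CPM in controls and 433.6, 436.7 and 458.9 CPM with ethanol (log2 fold change -0.07, SE 0.06), with ethanol library 3 within the control range. Its TPM was 8.96 to 11.8 times that of Lamp2, which had a log2 fold change of 0.08 (SE 0.08). Tfeb stood at 4.23, 3.56 and 3.81 CPM in controls and 5.92, 4.41 and 4.19 CPM with ethanol. Ethanol library 1 was the highest and ethanol library 3 fell below control library 1 (log2 fold change 0.32, SE 0.16, edgeR unadjusted p = 0.0677, adjusted p = 0.418). Ethanol library 1 was also the highest in the summed adipocyte, Sertoli cell, macrophage, erythroid and epididymis markers. The part of these cell types in the Tfeb value was not tested.

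Other genes of the pathway were described by 7 lists. At an unadjusted p under 0.05 there were 18 of 123 tested genes on the higher side and 2 on the lower side, together 16.3%, beside 13.3% of all tested genes, and 0 had an edgeR adjusted p under 0.05. Of 26 genes of lysosomal hydrolases and membrane proteins, 24 lay above 0. Their median log2 fold change was 0.15, and 8 were at an unadjusted p under 0.05, all on the higher side. Without ethanol library 3 there were 5 on the higher side and 1 on the lower side. Scarb2, which carries glucocerebrosidase to the lysosome, stood at 20.3, 21.6 and 20.3 CPM in controls and 28.3, 25.9 and 28.0 CPM with ethanol. The diets lay apart (log2 fold change 0.40, SE 0.08, edgeR adjusted p = 0.143; DESeq2 adjusted p = 0.00611). The palmitoyl-protein thioesterase Ppt1 stood at 178.9, 172.5 and 178.8 CPM in controls and 203.5, 204.7 and 214 CPM with ethanol, again apart (log2 fold change 0.23, SE 0.06, edgeR adjusted p = 0.155; DESeq2 adjusted p = 0.044). Ctsl, the protease cathepsin L, stood at 311.2, 294.8 and 301.4 CPM in controls and 342, 336.6 and 381.4 CPM with ethanol, with every ethanol library above every control (log2 fold change 0.22, SE 0.06, edgeR adjusted p = 0.187).

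Sertoli cell markers lay on the same side, with 9 of 12 at an unadjusted p under 0.05, all higher, where 7.45% of all tested genes lay. The median log2 fold change of these markers was 0.28. Of 8 macrophage markers, 7 lay above 0, and at an unadjusted p under 0.05 there was 1 higher and 1 lower, with a summed TPM of 65.3 to 77.2 in controls and 75.4 to 84.3 with ethanol. The part of either cell type in the lysosomal values was not tested.

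Of 19 genes of the V-ATPase, the proton pump of the lysosome, 11 lay above 0, the median log2 fold change was 0.03 and 0 had an unadjusted p under 0.05. With GC and length offsets there were 1 on the higher side and 2 on the lower side, and 1 on the higher side with total counts and on the FPKM and TPM scales. Without control library 2 or ethanol library 3 there was 1 on the lower side. The smallest p values belonged to Atp6v0e (log2 fold change 0.18, SE 0.09), Atp6v0d1 (log2 fold change -0.15, SE 0.08) and Atp6v0c (log2 fold change -0.16, SE 0.09). The diets lay apart in CPM for 4 of the 19 genes, or 21.1%, beside 18.8% of all tested genes. Of these, 2 were higher with ethanol, Atp6v0e among them, and 2 lower, Atp6v0d1 among them. The difference between this list and the hydrolases was not tested.

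The mTORC1 complex holds back autophagy when nutrients are present. Of 26 genes of mTORC1 and nutrient sensing, 5 had an unadjusted p under 0.05 on the higher side and 2 on the lower side, with a median log2 fold change of 0.03. Together this was 26.9%, beside 13.3% of all tested genes. The higher count was 2 without control library 3 or ethanol library 1 and 3 without control library 1, control library 2 or ethanol library 3. The lower count was 1 without control library 1, control library 2, ethanol library 2 or ethanol library 3. On both TPM scales there were 2 on the higher side and 0 on the lower side, on log2(FPKM + 1) 3 and 1, with GC and length offsets 2 and 2, and with limma-voom 3 and 2. Akt1s1, an inhibitory subunit of mTORC1, stood at 21.6, 21.9 and 23.0 CPM in controls and 19.3, 17.7 and 19.1 CPM with ethanol. Every ethanol library lay below every control (log2 fold change -0.24, SE 0.08, edgeR adjusted p = 0.235). With GC and length offsets the log2 fold change of Akt1s1 was -0.04 (edgeR unadjusted p = 0.606). Tsc1, a brake on the complex, and the stress sensor Sesn1 lay on the higher side, with log2 fold changes of 0.19 (SE 0.07) and 0.21 (SE 0.07), and that of Tsc1 was 0.08 with the offsets.

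AMPK is the energy sensor that activates ULK1. Of 10 genes of AMPK and its activator, 1 had an unadjusted p under 0.05, or 10.0%, beside 13.3% of all tested genes. It was the catalytic subunit Prkaa2, at 2.74, 3.36 and 2.52 CPM in controls and 3.83, 4.0 and 3.63 CPM with ethanol (log2 fold change 0.41, SE 0.15). The count was 0 without control library 1, control library 3 or ethanol library 2, and on both TPM scales. Log2 fold changes were -0.12 (SE 0.08) for Prkab2 and -0.10 (SE 0.07) for Stk11, the gene of the activator LKB1.

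Of 22 genes of mitophagy and other selective autophagy, 1 had an unadjusted p under 0.05, or 4.55%, beside 13.3% of all tested genes. The count was 2 without control library 2, with total counts, on log2(FPKM + 1) and on log2(TPM + 1). The median log2 fold change was -0.002. The 1 gene of the main fit was Calcoco1, a receptor of selective autophagy, at 12.3, 12.1 and 11.4 CPM in controls and 16.4, 14.5 and 13.4 CPM with ethanol (log2 fold change 0.31, SE 0.10). Every ethanol library lay above every control. The mitophagy receptor Bnip3l and the ferritin receptor Ncoa4 had log2 fold changes of 0.14 (SE 0.07) and 0.09 (SE 0.06).

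Of 15 genes of fusion with the lysosome, 1 had an unadjusted p under 0.05, or 6.67%, beside 13.3% of all tested genes. It was the tethering factor Epg5, at 40.1, 41.7 and 34.9 CPM in controls and 49.5, 45.3 and 43.2 CPM with ethanol (log2 fold change 0.24, SE 0.09). The count was 2 without control library 2 and 0 without control library 3 or ethanol library 1. It was also 0 on log2(FPKM + 1), on both TPM scales and with GC and length offsets, where the log2 fold change of Epg5 was 0.11. The HOPS subunits Vps18 and Vps41 had log2 fold changes of 0.17 (SE 0.09) and 0.10 (SE 0.07).

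All 5 tested transcription factors of autophagy genes lay above 0, and 2 had an unadjusted p under 0.05, beside 13.3% of all tested genes. Foxo3 stood at 38.2, 44.6 and 39.1 CPM in controls and 48.9, 42.8 and 51.5 CPM with ethanol (log2 fold change 0.23, SE 0.09), with ethanol library 2 within the control range. Tfe3, a relative of Tfeb, stood at 10.1, 11.0 and 8.47 CPM in controls and 12.1, 11.4 and 12.9 CPM with ethanol (log2 fold change 0.30, SE 0.12), with the diets apart. The count was 0 without control library 1, control library 3 or ethanol library 3, and 1 without ethanol library 1 or on log2(TPM + 1). Mitf, another relative, had a log2 fold change of 0.30 (SE 0.15).

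**Figure D5:**
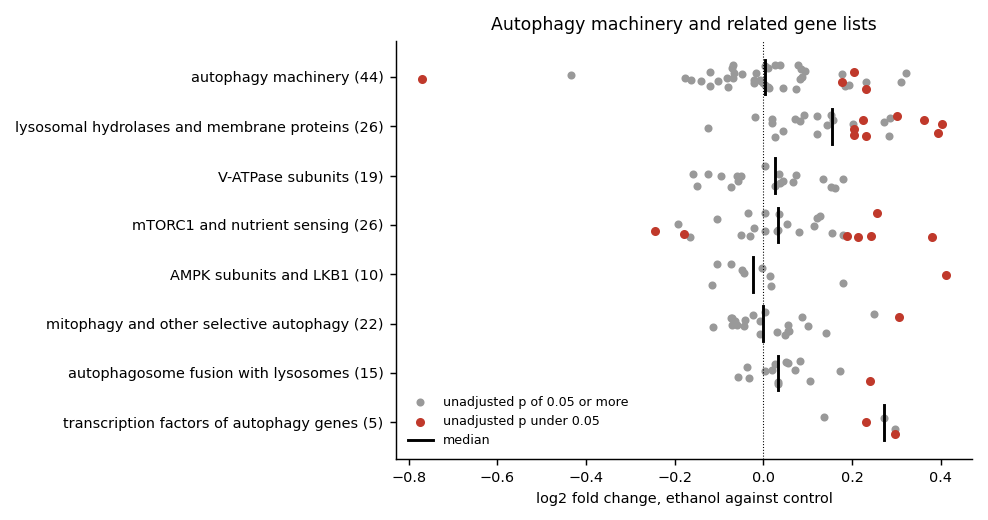
Log2 fold change, ethanol against control (x axis), of each of the 44 autophagy machinery genes and of the genes of each related list (y axis, number of tested genes in brackets), where red points have an unadjusted edgeR p under 0.05 and black bars are medians. The machinery has a median of 0.003 and the lysosomal list one of 0.15.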

How the data were processed

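Total RNA of 6 testis libraries was sequenced after ribosomal RNA removal with a stranded kit, per the labels' protocols. The submitters' processing notes name HISAT2 and the build mm10; which tool counted the reads, whether it used strand, and which annotation it read is not given in the sources used here. The deposited table held raw counts per gene and, computed by the authors per the file headers, FPKM and TPM, both scaled to transcript length. There were 0 sample columns outside these libraries.

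The counts were tested with edgeR 4.0.16 in R 4.3.3: filterByExpr, TMM scaling, the quasi-likelihood F-test without covariates, and Benjamini-Hochberg adjustment over 25073 genes. Each standard error is the fold change divided by the square root of F. No 2 libraries were alike within sampling error (chi-square per gene of at least 7.66). This value was 7.66 to 18.3 between libraries of one diet and 8.96 to 26.2 between libraries of different diets. The ranges overlapped, so the libraries did not group cleanly by diet. Coordinates came from an NCBI table of GRCm38.p6 and exon overlaps from GENCODE M21, both on mm10; 11 of the 44 genes share exonic bases with a gene of the table on the opposite strand. Alternatives were other scalings, filters, DESeq2 1.42.0, limma 3.58.1 (voom, and trend on log2 FPKM or TPM), the replicate number as a block, each library left out and, added after the data were seen, GC and length offsets. The procedure was tested on simulated data with planted changes larger than those of most of the 44 genes. Its behaviour for smaller changes was not tested.

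The genes and lists were chosen with earlier results of these data known. Values by library are given for genes at an unadjusted p under 0.05 or with separate diets, for the highest and lowest gene of each role by TPM, for the ATG8 family and the cargo receptors, and for Ulk1, Ulk2, Atg2a and Atg3, which were added after their values were seen; from each related list the 3 genes of smallest p are named. A p-value under 0.05 was the threshold.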

Additional observations from a re-analysis of the deposited data

How the results depend on the processing

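None of the 44 genes passed an adjusted p of 0.05 in any of the 18 alternatives, where the lowest adjusted p was 0.114. It belonged to Atg2a, which lay on the lower side in all 18. Over all genes, the 0 higher and 0 lower calls became 203 and 127 with DESeq2, 3 and 2 with limma-voom, 2 and 0 with upper-quartile scaling or the filter of 1 CPM, 6 and 3 with GC and length offsets, and 0 to 1 and 0 to 2 without single libraries. The number of the 44 genes at an unadjusted p under 0.05 ran from 1 to 3 on the higher side and from 0 to 2 on the lower side without single libraries; the lower count was 0 with DESeq2 or the filter of 1 CPM and 5 with GC and length offsets. Their median log2 fold change was 0.029 with total counts, 0.01 with the filter of 1 CPM, 0.028 on log2(FPKM + 1), 0.06 on log2(TPM + 1), 0.069 on log2(TPM + 0.1), -0.026 with the offsets and -0.011 to 0.023 without single libraries, beside medians of all genes of 0.032, 0.005, 0.016, 0.044, 0.058 and -0.016 in those 6 fits. For the lysosomal list the median was 0.232 and 0.255 on the 2 TPM scales, with 5 to 9 genes higher and 0 to 1 lower without single libraries. Of 27 of the 44 genes checked singly, 23 kept their sign. Exceptions were Gabarap (0.007 on both TPM scales), Map1lc3a (0.039 with the offsets), Sqstm1 (0.009 with total counts, 0.008 on FPKM, 0.039 and 0.04 on TPM, -0.085 to 0.023 without single libraries) and Tax1bp1 (-0.021 with the offsets, -0.014 to 0.038 without single libraries). The filter of 1 CPM leaves no value for Calcoco2 and Atg9b. The depth limits Calcoco2, which has at most 31 reads.

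Same-numbered libraries did not deviate together (correlations of -0.0581, 0.00288 and 0.127), so the numbers are not taken as pairs. With the replicate block, 5 genes were called higher and 10 lower over all genes, and 5 of the 44 had an unadjusted p under 0.05 on the higher side. In that fit 13.9% of all genes had an unadjusted p under 0.05 on either side.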
